A study of Mus musculus with 29 samples.

Results

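The comparison described here set C2C12 cells that had received a miR-34a mimic against C2C12 cells that had received AllStar, the negative control oligonucleotide. It used the 3 arrays labelled miR-34a over-expression and the 6 AllStar arrays, 9 of the 29 arrays of the study, and it covered 19938 genes. The AllStar arrays were 3 control replicates and a technical repeat of each, and a control was averaged with the repeat of the same number, so that 3 values stood on each side. C2C12 is an established mouse myoblast line that proliferates in serum-rich medium and can fuse into myotubes. All transfected cells were at passage 27, grew in DMEM with serum, were transfected with HiPerFect reagent at 50 nM and were collected after 36 h as total RNA. The experiment had been repeated 3 times. Mimics of the other 6 microRNAs (miR-1, miR-22, miR-29a, miR-145, miR-365 and Let-7b) had 3 arrays each, 18 in all, and served as a second comparison, in which no control value enters the difference, though the controls share in its estimate of the spread. Untransfected proliferating myoblasts and differentiated myotubes had 1 array each and gave values without a test. The cells are a single line, and a transfected mimic can exceed the level of the natural microRNA.

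A microRNA is loaded into an Argonaute protein and pairs through its seed, bases 2 to 8, with sites in messenger RNAs, which are then translated less and degraded. The gene of miR-34a is induced by the tumour suppressor p53, and miR-34a is known for lowering cyclins, their kinases, E2F factors, growth factor receptors and survival genes, and thereby for holding cells before S phase. Myoblasts must leave the cell cycle before they fuse, so the genes of the cell cycle and of muscle were followed together.

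The mature sequence of miR-34a is shown because its seed sets which messenger RNAs it can pair with. The labels name the mimic without an arm, and the 5p arm is given here. Sequences are those of RefSeq for build GRCm38.p6, from 5′ to 3′, with the seed in capitals. The miR-34a gene holds this sequence at chr4:150068473-150068494 on the plus strand. The next 3 microRNAs share its seed.
miR-34a-5p: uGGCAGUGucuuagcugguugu
miR-34b-5p: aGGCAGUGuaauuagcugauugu
miR-449a-5p: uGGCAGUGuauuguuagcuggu
miR-449c-5p: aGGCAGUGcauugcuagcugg
Of the other mimics, 4 had an entry with these arms, and none of them has this seed.
miR-22-3p: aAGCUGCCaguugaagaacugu
miR-29a-3p: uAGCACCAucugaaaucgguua
miR-365-3p: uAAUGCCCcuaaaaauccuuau
let-7b-5p: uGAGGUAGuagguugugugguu
The array does not measure the mimic. The probe set of the Mir34a gene itself read 5.12, 4.95 and 5.18 in the controls and 4.77, 5.15 and 5.27 under the mimic, as log2 levels. These values overlapped (difference -0.02 ± 0.16, SE, adjusted p = 0.976) and lay below 6.67, the median of the probe sets with no listed gene, a level chosen as a mark of dim signal after values had been seen.

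All values are log2 levels made by the authors' RMA summary, so a difference of 1 is a change of 2-fold, and a level is compared only with the same gene's level. Medians of the 9 arrays lay between 7.30 and 7.37. A control and its technical repeat had a Pearson's r across probe sets of 0.9958 to 0.9963, the control values had 0.9949 or more with each other and the miR-34a arrays 0.9935 or more. Myoblast markers were high: the lowest of the 9 control means was 10.49 (Myf5) and the highest 13.16 (Des), and 0 of the 9 lay below 6.67. Of markers of other cell types, 5 of 7 endothelial, 3 of 5 blood cell, 3 of 8 epithelial, 3 of 6 osteoblast and 3 of 9 adipocyte genes lay below it. In RNA from whole cultures, fewer cells of a type and less RNA per cell cannot be told apart. One library of another mimic stood apart: the summed log2 level of 23 interferon genes was 243.7 in miR-145 replicate 3, against 159.7 to 184.6 in the other 23 values. The next highest were miR-145 replicates 1 and 2, at 184.6 and 180.3. Replicate 3 enters the shared estimate of the spread and the mean of the other mimics, and is taken up with the interferon genes.

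Under the miR-34a mimic 2330 of 19938 genes differed from the control (11.7%), 1209 lower (6.06%) and 1121 higher (5.62%), in limma at a Benjamini-Hochberg adjusted p under 0.05. Most differences were small, and at 1.5-fold or more 266 genes were lower and 268 higher. At 2-fold or more 40 were lower and 48 higher. In 2825 genes (14.2%) all 3 miR-34a values lay below all 3 control values, and in 2862 (14.4%) above. The median difference of all genes was 0.017. Against the mean of the other 6 mimics 1630 genes were lower (8.18%) and 1177 higher (5.9%). The comparison with the control and the one with the other mimics share the miR-34a arrays, so their values stand side by side and are not counted as independent. The count against control was 1482 without miR-34a replicate 3 and 1523 without control replicate 3, and with each array centred on its median the split was 1389 lower and 850 higher. The count of higher genes was 677 without control replicate 3, 707 without miR-34a replicate 3 and 739 without control replicate 2, and that of lower genes was 775 without miR-34a replicate 3. Against the other mimics 582 were higher and 927 lower without miR-34a replicate 3, and 767 higher without miR-34a replicate 1.

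**Figure D1:**
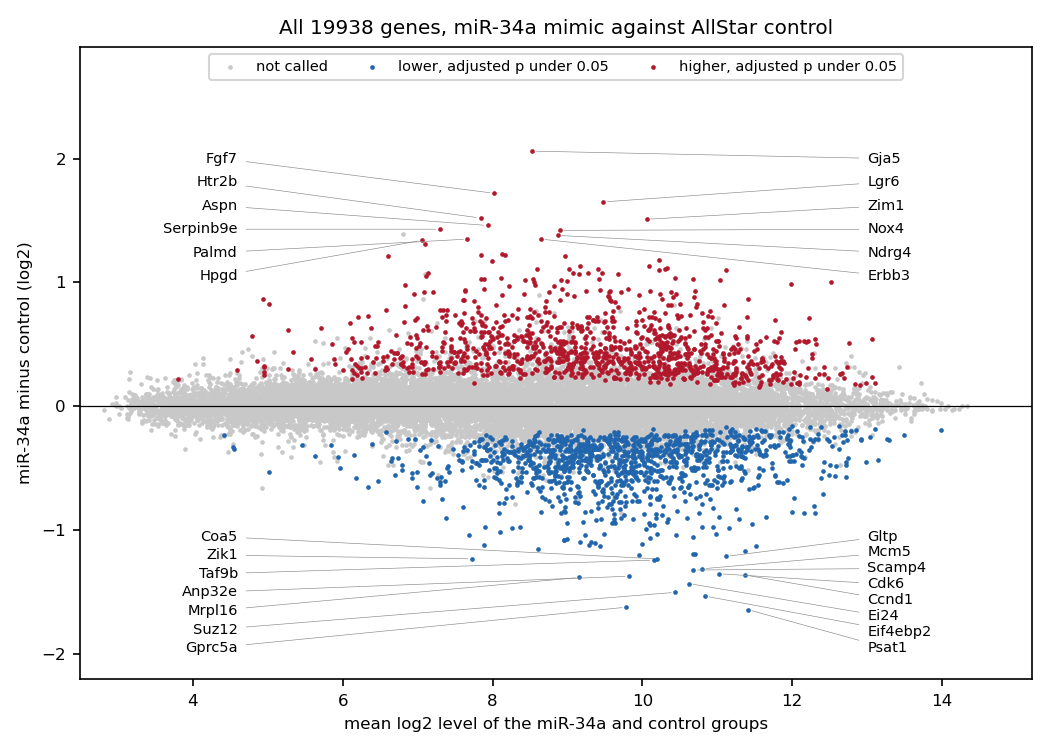
Each point is 1 of 19938 genes, with the mean log2 level of both groups on the x axis and the log2 difference, miR-34a minus control, on the y axis. Blue and red mark adjusted p under 0.05, and lines name the 15 largest decreases and 12 largest increases, from Psat1 at -1.64 to Gja5 at 2.06.

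Genes known as miR-34a targets were lower in 21 of 54 measured cases (38.9%, beside 6.06% of all genes) and higher in 2 (3.7%, beside 5.62%). Their median difference was -0.28 beside 0.02 over all genes. The members lower than the other mimics numbered 23 (42.6%, beside 8.18% of all genes), with a median of -0.19. There 2 were higher (3.7%, beside 5.9% of all genes), and 0 without miR-34a replicate 3. Of the targets in the cell cycle 6 of 10 fell and in growth factor signalling 7 of 11, while in the Wnt pathway 0 of 6 fell and 1 rose. The target list was written with earlier results of these data known.

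Among the cell cycle targets the D-type cyclin gene Ccnd1, which with its kinase opens the way into S phase, read 12.15, 11.98 and 12.01 in the controls and 10.88, 10.71 and 10.47 under miR-34a. All 3 treated values lay more than 1 log2 unit below every control, and the mean fell by 1.36 ± 0.15 (SE, adjusted p = 1.70e-06). Its kinase gene Cdk6 read 11.67, 11.71 and 11.71, then 10.44, 10.32 and 10.28, a difference of -1.35 ± 0.08 (adjusted p = 2.53e-10). Cdk4, the other kinase of D cyclins, had a difference of 0.03 ± 0.04 (adjusted p = 0.816). The phosphatase gene Cdc25a, which activates these kinases, fell by 0.74 ± 0.09, and the transcription factor genes E2f5 and E2f3 fell by 0.77 ± 0.09 and 0.67 ± 0.11. Ccne2, an E-type cyclin gene, fell by 0.54 ± 0.12 (adjusted p = 0.00301). Myc, a growth regulator, read 11.78, 11.38 and 11.24 against 11.36, 10.71 and 10.96. The groups overlapped, but within each replicate number the treated value was lower, with differences of -0.42, -0.67 and -0.28. The difference of -0.45 ± 0.22 did not pass (adjusted p = 0.248) and did when blocked on replicate number (0.00147). Ccnd1 and Cdk6 were also below the other mimics, at -1.13 ± 0.12 and -0.53 ± 0.06.

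In growth factor signalling 4 receptor tyrosine kinase genes fell. Met, the receptor of hepatocyte growth factor, read 10.52, 10.59 and 10.57 in the controls and 9.34, 9.46 and 9.53 under miR-34a (-1.11 ± 0.09, adjusted p = 9.22e-09). Axl, the receptor of Gas6, read 12.86, 12.58 and 12.64 against 12.06, 11.91 and 11.73 (-0.80 ± 0.09, adjusted p = 9.90e-07). In both genes every treated value lay below every control value. The receptors of platelet-derived growth factor, Pdgfra and Pdgfrb, fell by 0.52 ± 0.11 and 0.56 ± 0.15. The call of Pdgfrb was lost without miR-34a replicate 3 (adjusted p = 0.0879) or control replicate 1 (0.0888). Downstream, the kinase gene Map2k1 (MEK1) fell by 0.87 ± 0.10 (adjusted p = 2.15e-06) and the small GTPase gene Rras by 0.86 ± 0.08 (adjusted p = 6.99e-08). Kit and Csf1r lay at or below 6.72 in both groups and had differences of 0.14 ± 0.08 and 0.04 ± 0.09, neither past the threshold.

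The survival gene Bcl2 read 10.67, 10.38 and 10.44, then 10.15, 9.81 and 9.73 (-0.60 ± 0.10, adjusted p = 1.67e-04). The deacetylase gene Sirt1 fell by 0.36 ± 0.09 (adjusted p = 0.0144) and Mta2, of the NuRD repressor complex, by 0.33 ± 0.07. Of other Bcl2 family genes 0 of 13 passed against the control (limma, with 2 higher and 0 lower at an unadjusted p under 0.05). Compared with the other mimics, 3 of the 14 were higher, Bak1, Bik and Bmf (21.4%, beside 5.9% of all genes). Bcl2 was the 1 that was lower there (-0.27 ± 0.07, 7.14% beside 8.18%). Bak1, Bmf and Bcl2 were lost there without miR-34a replicate 2 or 3, and Bik without replicate 1. Tpd52, a gene of vesicle traffic and lipid storage, fell by 0.97 ± 0.10 (adjusted p = 3.37e-07), the focal adhesion gene Vcl by 0.39 ± 0.09 and the fucosyltransferase gene Fut8 by 0.35 ± 0.08. In the Notch pathway the receptor gene Notch2 fell by 0.31 ± 0.09 and Numbl by 0.55 ± 0.11, while the receptor gene Notch1 and the ligand gene Jag1 did not pass (adjusted p = 0.702 and 0.814). Both were lower than the other mimics, Notch1 at -0.40 ± 0.12 and Jag1 at -0.59 ± 0.13, but without miR-34a replicate 3 neither passed there (adjusted p = 0.184 and 0.0586), Notch1 also not without replicate 1 (0.255) nor Jag1 without replicate 2 (0.0508). The 2 listed targets that rose were the Notch ligand gene Dll1, from 7.98, 8.37 and 7.90 to 8.73, 9.45 and 9.01 (0.98 ± 0.22, adjusted p = 0.00356), and Ctnnb1, the gene of beta-catenin, by 0.23 ± 0.06 (adjusted p = 0.00822). Several of these calls were lost when 1 replicate was left out. Without miR-34a replicate 3 those of Ctnnb1 (adjusted p = 0.0563), Vcl (0.0688) and Notch2 (0.112) were lost, so that 1 listed target rose. Sirt1 was lost without miR-34a replicate 2 (0.0817) or control replicate 1 (0.0793), Vcl also without control replicate 1 (0.0517), and Notch2 without miR-34a replicate 1 (0.0801), control replicate 1 (0.125) or control replicate 3 (0.0597).

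**Figure D2:**
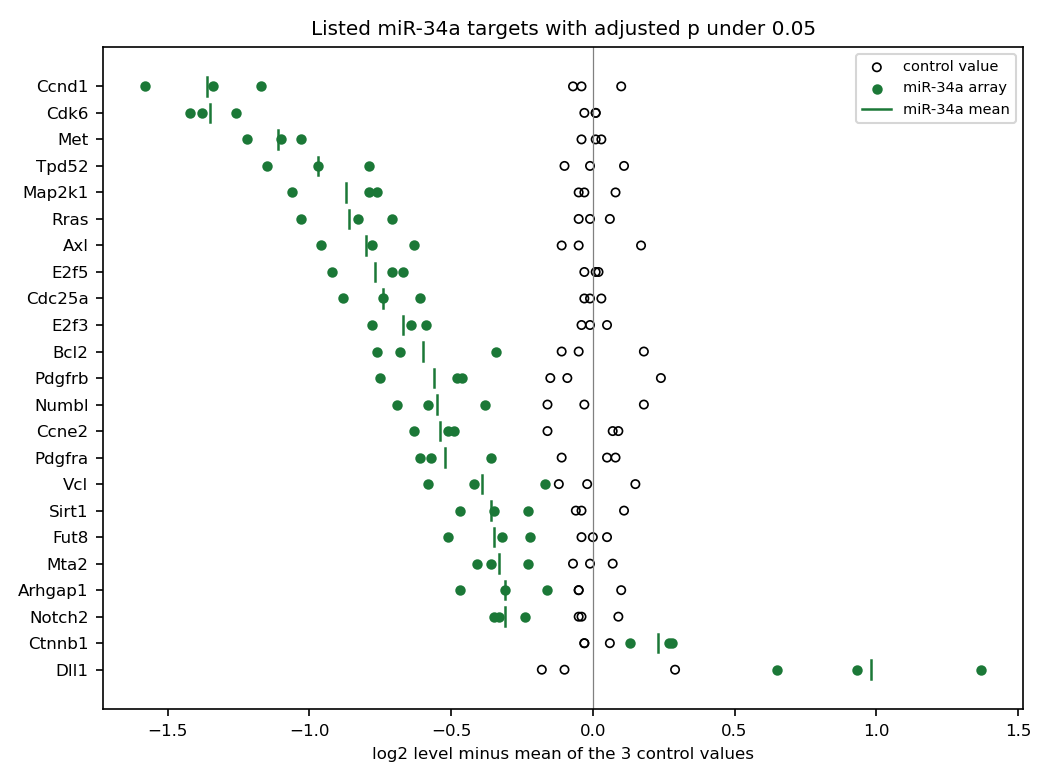
For each of the 23 listed targets with adjusted p under 0.05, open circles are the 3 control values, green points the 3 miR-34a arrays and the bar their mean, as log2 level minus the mean of the controls. Green and open points do not overlap in any of these genes, from Ccnd1 at -1.36 to Dll1 at 0.98.

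Of the 15 largest decreases, Ccnd1 and Cdk6 were listed targets and the other 13 were not. Psat1, the aminotransferase of serine synthesis, read 12.19, 12.25 and 12.24 in the controls and 10.47, 11.01 and 10.28 under miR-34a, 3.12-fold lower (-1.64 ± 0.11, adjusted p = 6.82e-10). Gprc5a, an orphan receptor gene, read 10.88, 10.45 and 10.46 against 9.28, 8.90 and 8.75 (-1.62 ± 0.19). Eif4ebp2, a repressor of cap-dependent translation, read 11.80, 11.56 and 11.45 against 10.16, 10.26 and 9.80 (-1.53 ± 0.15). In these genes the lowest control exceeded the highest treated value by more than 1 log2 unit. Suz12, a core subunit of Polycomb repressive complex 2, fell from 11.14, 11.20 and 11.23 to 9.81, 9.81 and 9.46 (-1.50 ± 0.09, adjusted p = 3.46e-10). The gene of a mitochondrial ribosomal protein, Mrpl16, read 9.82, 9.88 and 9.86 against 8.42, 8.63 and 8.36 (-1.38 ± 0.07, adjusted p = 1.04e-10). It had the largest decrease against the other mimics, -1.57 ± 0.06. Ei24, a p53-induced gene of the endoplasmic reticulum, was at -1.43 ± 0.10, the histone chaperone gene Anp32e at -1.37 ± 0.15, Scamp4 at -1.32 ± 0.14 and the helicase subunit gene Mcm5 at -1.31 ± 0.21. The other 4 of the 15 largest decreases were Taf9b (-1.24), Zik1 (-1.23), Coa5 (-1.23) and Gltp (-1.21).

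Among increases the gap junction gene Gja5 (connexin 40) stood first, from 7.63, 7.37 and 7.49 to 9.90, 9.42 and 9.36, 4.17-fold higher (2.06 ± 0.17, adjusted p = 3.34e-08). Fgf7, a growth factor for epithelia, rose from 7.30, 7.19 and 6.99 to 9.11, 8.32 and 9.21 (1.72 ± 0.29). Lgr6, a receptor for R-spondins, rose from 9.20, 8.43 and 8.33 to 10.84, 9.71 and 10.37 (1.65 ± 0.22). In each of these the 3 treated values lay above all controls. Zim1, an imprinted zinc finger gene, rose by 1.51 ± 0.12 and the serotonin receptor gene Htr2b by 1.52 ± 0.15. The NADPH oxidase gene Nox4 rose by 1.42 ± 0.19, Ndrg4 by 1.38 ± 0.21, the neuregulin receptor gene Erbb3 by 1.35 ± 0.16 and Palmd by 1.35 ± 0.15. Aspn, a matrix proteoglycan gene, was at 1.46 ± 0.43 (adjusted p = 0.0282), a call that ended with a robust variance and without any 1 of 5 replicates, with adjusted p up to 0.127 without miR-34a replicate 2. Serpinb9e and Hpgd read 6.58 and 6.39 on average in the controls, below the level of dim signal, so no fold is given. Their differences had adjusted p = 0.0373 and 0.00394, and the call of Serpinb9e ended with a robust variance and without any 1 of 5 replicates, with adjusted p up to 0.238 without miR-34a replicate 3. The other 25 of these 27 genes kept their call against control under all settings tried.

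The largest increases against the control were not all increases against the other mimics. Gja5 was at 2.05 ± 0.13 against their mean, Zim1 at 1.52 ± 0.09, Lgr6 at 1.27 ± 0.17 and Fgf7 at 1.24 ± 0.22. The mean hides single mimics: under miR-1 Fgf7 was at 1.73 and Lgr6 at 1.47 against the control. These lie near the 1.72 and 1.65 under miR-34a, and Fgf7 was at 1.06 under Let-7b. Htr2b was at 1.89 under miR-29a and 1.37 under Let-7b, beside 1.52 under miR-34a. Erbb3 was at 1.28 under miR-1, beside 1.35 under miR-34a. Slc40a1, the iron exporter gene, was at 0.66 ± 0.17 against the control and at 1.25 ± 0.13 against the other mimics, and the first call ended without miR-34a replicate 3 (adjusted p = 0.0861) or control replicate 1 (0.0527). Ndrg4 (0.42, adjusted p = 0.0987), Hpgd (0.56, 0.116) and Aspn (0.47, 0.431) did not pass against the other mimics, but when blocked on replicate number Ndrg4 (0.00156) and Hpgd (0.0458) did. Nox4 (0.45, adjusted p = 0.0443) missed the threshold under several settings, with adjusted p up to 0.262 without miR-34a replicate 3, and Htr2b (0.54, 0.00154) had 0.0584 without that replicate.

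Each mimic was also compared with the same 3 control values, so these differences share their controls. Suz12 was at -1.50 under miR-34a and at -0.68 under miR-1 (adjusted p = 5.11e-06), with 0.02 to -0.12 under the other 5. Met was at -1.11 under miR-34a and -1.21 under miR-1. Cdk6 was lower under all 7 mimics, from -0.49 under Let-7b to -1.43 under miR-29a. For Mrpl16 the other 6 mimics lay between 0.11 and 0.31. Axl was at -0.80 under miR-34a and between -0.23 and 0.08 under the others. Gja5 was at 2.06 under miR-34a, while miR-1 gave 0.55 and miR-365 -0.66.

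**Figure D3:**
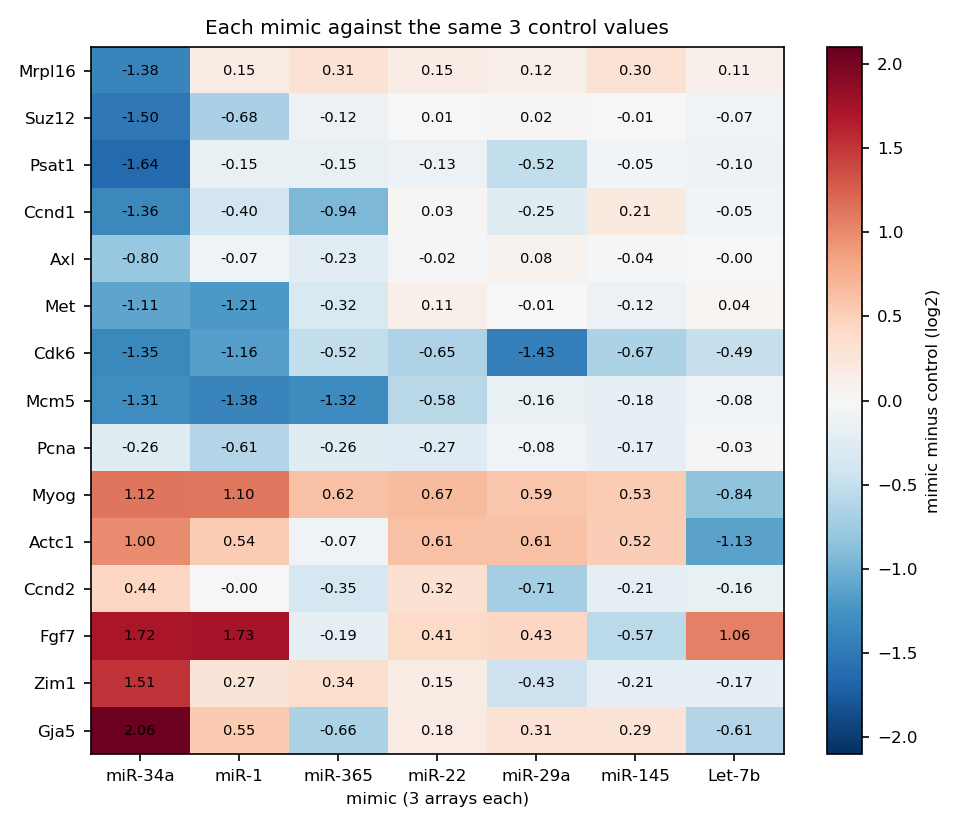
Cells give the log2 difference of each mimic (columns, 3 arrays each) from the same 3 control values for 15 genes named in the text (rows), with red for higher and blue for lower. In the miR-34a column Mrpl16 is at -1.38 and Gja5 at 2.06, against at most 0.31 and 0.55 elsewhere, while Mcm5 is at -1.38 under miR-1 and -1.32 under miR-365 beside -1.31 under miR-34a.

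Genes that copy DNA were lower as a group: 37 of 47 measured replication genes fell (78.7%, beside 6.06% of all genes) and 0 rose. The median was -0.44. At origins and in the helicase 16 of 20 fell. Mcm5 read 11.61, 11.37 and 11.37 in the controls and 10.33, 10.28 and 9.83 under miR-34a (-1.31 ± 0.21, adjusted p = 1.42e-04). Orc2, of the origin recognition complex, read 10.51, 10.60 and 10.62 against 9.65, 9.58 and 9.61 (-0.96 ± 0.08, adjusted p = 1.31e-08). The treated values lay below every control in both genes. Mcm10 fell by 0.81 ± 0.14, Orc1 by 0.73 ± 0.12, the polymerase subunit gene Pold2 by 0.67 ± 0.10, the clamp loader gene Rfc1 by 0.60 ± 0.09, and the sliding clamp gene Pcna by 0.26 ± 0.05 (adjusted p = 7.55e-04). Compared with the other mimics, 6 of the 47 were lower (12.8%, beside 8.18% of all genes) and 0 higher, with a median of -0.06. Among the 6 were Orc2 (-0.80 ± 0.06), Mcm5 (-0.69 ± 0.16, adjusted p = 0.0039, and 0.0874 without miR-34a replicate 3) and Mcm10 (-0.45 ± 0.11, with adjusted p = 0.064 without that replicate). Cdc6, which loads the helicase, was at -0.65 ± 0.16 against the control and at -0.00 ± 0.12 against the other mimics, and the first of these lost its call without miR-34a replicate 3 (adjusted p = 0.0528). The count of 6 was 3 without miR-34a replicate 3, and it was 10 when blocked on replicate number.

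Promoters of these genes often carry the letters bound by E2F factors. The window from 250 bases before to 50 bases after the start was searched on both strands for TTTGGCGC, TTTCGCGC, TTTCCCGC and TTTGCCGC. A match was found in 17 of 48 windows of replication genes (35.4%; 39 of 47 genes had a window) and in 572 of 19116 windows of all measured genes (2.99%). For the 37 replication genes that fell it was found in 13 of 40 windows (32.5%), so it was no more common in them. A match describes letters and shows no binding. The Mcm5 window is printed because Mcm5 fell most among replication genes. It lies at chr8:75109259-75109558 on the plus strand of GRCm38.p6, and the capitals, where 2 of the motifs overlap on opposite strands, begin 153 bases before the start.
Mcm5: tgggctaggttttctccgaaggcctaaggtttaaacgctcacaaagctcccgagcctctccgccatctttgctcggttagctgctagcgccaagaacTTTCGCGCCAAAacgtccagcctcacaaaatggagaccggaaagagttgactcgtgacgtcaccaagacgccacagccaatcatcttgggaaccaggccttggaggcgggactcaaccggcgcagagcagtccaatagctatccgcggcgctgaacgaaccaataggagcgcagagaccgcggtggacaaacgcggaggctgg

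Of G1 regulators 13 of 30 fell (43.3%, beside 6.06% of all genes) and 1 rose, with a median of -0.19. Beside the listed targets above, the ubiquitin ligase gene Skp2, which removes a cell cycle inhibitor, fell by 0.49 ± 0.08 (adjusted p = 1.97e-04) and the E-type cyclin gene Ccne1 by 0.61 ± 0.11. Cks1b, a partner of Skp2, fell by 0.40 ± 0.08, and Cdkn2c, an inhibitor of Cdk4 and Cdk6, by 0.71 ± 0.13. The member that rose was Ccnd2, a D-type cyclin gene like Ccnd1, which read 9.59, 9.64 and 9.67 in the controls and 10.04, 9.96 and 10.22 under miR-34a (0.44 ± 0.11, adjusted p = 0.0121). It was also above the other mimics, by 0.63 ± 0.09, so the cyclin genes Ccnd1 and Ccnd2 moved in opposite directions in both comparisons. Without miR-34a replicate 3 the call of Ccnd2 against the control was lost (adjusted p = 0.0884). When blocked on replicate number 2 members rose. Of the 30, 7 were lower than the other mimics (23.3%, beside 8.18% of all genes) and 2 higher (6.67%, near 5.9%). The 2 were 1 without miR-34a replicate 3 and 4 when so blocked.

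Mitosis genes fell in 19 of 45 cases (42.2%, beside 6.06% of all genes), 0 rose, and the median was -0.32. In 38 of 45 all treated values lay below all control values, beside 14.2% of all genes. Cdca8 (borealin, of the chromosomal passenger complex) read 10.09, 10.17 and 10.11 against 9.21, 9.31 and 9.35 (-0.83 ± 0.10, adjusted p = 6.65e-06). The centromere histone gene Cenpa fell by 0.51 ± 0.11, the topoisomerase gene Top2a by 0.54 ± 0.12, the checkpoint kinase gene Ttk by 0.47 ± 0.11 and Plk4, of centriole duplication, by 0.35 ± 0.08. Cdca8 and Cenpa were also below the other mimics, by 0.49 and 0.30. These were the 2 of 45 that passed there as lower (4.44%, beside 8.18% of all genes). Cenpa was lost there without miR-34a replicate 1 (adjusted p = 0.158) or 3 (0.151). The count of 19 depends on the arrays and the model. It was 5 without miR-34a replicate 1, 6 without control replicate 3, 10 without miR-34a replicate 3 or control replicate 2 and 11 without control replicate 1. When blocked on replicate number it was 32. In repair and checkpoint genes 11 of 20 fell (55%, beside 6.06% of all genes) and 0 rose. The decreases were led by the checkpoint kinase gene Chek1 (-0.76 ± 0.14) and Bard1 (-0.59 ± 0.12). Without miR-34a replicate 2, miR-34a replicate 3 or control replicate 1 the count that fell was 6 or 7. Of the same 20 genes Clspn was lower than the other mimics and H2ax higher, and no repair gene was lower there without miR-34a replicate 2 or 3.
The letters TTTGAA, an element of many mitotic promoters, occurred on either strand in 27 of 40 windows of mitosis genes (67.5%; 36 of 45 genes had a window) and in 14.8% of all windows. The Cdca8 window is printed as that of the mitosis gene that fell most, at chr4:124936868-124937167 on the minus strand of GRCm38.p6. The capitals begin at base 14 after the start.
Cdca8: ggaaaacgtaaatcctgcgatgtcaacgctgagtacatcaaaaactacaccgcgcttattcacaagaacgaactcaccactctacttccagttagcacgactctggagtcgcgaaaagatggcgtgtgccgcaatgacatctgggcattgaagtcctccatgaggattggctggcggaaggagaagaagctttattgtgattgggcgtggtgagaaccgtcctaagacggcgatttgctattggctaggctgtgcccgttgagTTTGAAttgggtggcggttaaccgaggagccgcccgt

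The myogenic program moved the other way: of 25 genes of myogenic factors and fusion 9 rose (36%, beside 5.62% of all genes) and 1 fell. The median was 0.22. Myod1, the master regulator of the lineage, read 12.10, 12.15 and 11.84 in the controls and 12.64, 12.63 and 12.45 under miR-34a (0.54 ± 0.14, adjusted p = 0.00985). Myog, which drives differentiation, rose from 9.81, 10.05 and 9.43 to 10.68, 11.24 and 10.73 (1.12 ± 0.28, adjusted p = 0.00871). Mef2a, a partner of these factors, rose from 12.03, 11.99 and 11.78 to 12.42, 12.53 and 12.42 (0.52 ± 0.07). In these genes no treated value overlapped a control. The fusion gene Mymk rose by 0.53 ± 0.10 and the adhesion gene Cdh2 by 0.53 ± 0.06. The early embryonic myosin gene Myh3 rose by 0.88 ± 0.19. The creatine kinase gene Ckm (0.71 ± 0.20), Mef2c (0.69 ± 0.21) and the fusion gene Mymx (0.54 ± 0.18) also rose, but their calls ended without any 1 of 3, 4 and 6 replicates. Myf5, the factor of undifferentiated myoblasts, fell by 0.35 ± 0.10 (adjusted p = 0.0285), a call lost without the technical repeats and without any 1 of 4 replicates (adjusted p up to 0.143, without miR-34a replicate 1). Compared with the other mimics, 8 of 25 were higher (32%, beside 5.9% of all genes) and 0 lower, with a median of 0.08. Myod1 was at 0.59 ± 0.10 there, Mef2a at 0.28 ± 0.05 and Myog at 0.68 ± 0.21. Of these, Myog was lost without miR-34a replicate 1 (adjusted p = 0.0548), 2 (0.263) or 3 (0.0831). Without control replicate 3 the count of 9 was 4, and Myod1 (adjusted p = 0.0731) and Myog (0.0622) were among the calls lost. Myog was also lost without miR-34a replicate 2 (0.0544), Ckm reached 0.106 without control replicate 3, Mef2c 0.154 without control replicate 2 and Mymx 0.255 without miR-34a replicate 2. The 8 against the other mimics were 4 without miR-34a replicate 1. Of 20 inhibitors of myogenesis 1 fell, Twist2 (-0.92 ± 0.21, adjusted p = 0.00531), and when blocked on replicate number 2 did. This share of 5% lies near the 6.06% of all genes. Against the other mimics 5 of the 20 inhibitors were higher (25%, beside 5.9% of all genes) and 1 lower. Of the higher ones, Id3, Snai2 and Mstn were lost there without miR-34a replicate 1, and Snai2, Mstn and Bhlhe41 without replicate 3. The myoblast markers, of which Myod1, Cdh2 and Chrna1 rose and Myf5 fell, summed to 105.6 to 106.7 in the controls and 107.1 to 107.9 under miR-34a.

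Sarcomere and calcium handling genes rose in 19 of 54 cases (35.2%, beside 5.62% of all genes) and 0 fell, with a median of 0.45. All treated values lay above all control values in 37 of 54, beside 14.4% of all genes. Cardiac actin, Actc1, read 12.13, 12.15 and 11.79 against 12.97, 13.14 and 12.96 (1.00 ± 0.16, adjusted p = 1.43e-04). Tmod1, which caps actin filaments, read 8.48, 8.21 and 8.17 against 9.21, 9.15 and 9.27 (0.92 ± 0.13), but a second, dimmer probe set of this gene differed by 0.13. Klhl41, a stabiliser of thin filaments, rose from 9.80, 9.61 and 9.48 to 10.73, 10.87 and 10.85 (1.18 ± 0.24). Mybph rose by 0.88 ± 0.14, Xirp1 by 0.93 ± 0.18 and the giant protein gene Neb by 0.92 ± 0.18. By role the calls were 9 of 17 in the thin filament, 4 of 14 in the Z-disc and M-band, 4 of 10 in calcium handling and 2 of 13 among myosins. Of the 9, 7 were kept without any 1 replicate, while in calcium handling 1 of 4 was kept without control replicate 3 and 2 without control replicate 2 or miR-34a replicate 1. In the Z-disc and M-band 1 of 4 was kept without miR-34a replicate 2 and 2 without control replicate 1, and among myosins 1 of 2 without miR-34a replicate 1 or 3 or control replicate 2 or 3. Against the other mimics 11 of 54 were higher (20.4%, beside 5.9% of all genes) and 1 lower, with a median of 0.21. The lower one, Jph1, was lost without miR-34a replicate 2 (adjusted p = 0.103) or 3 (0.185). Actc1 was at 0.82 ± 0.12 there and Tmod1 at 0.77 ± 0.10, while Neb was at 0.11 ± 0.14 and Ttn at 0.08 ± 0.17. The count of 19 was 12 without control replicate 3 and 29 when blocked on replicate number, and the 11 were 6 without miR-34a replicate 1 or 3, 7 without miR-34a replicate 2 and 17 when so blocked.
The 2 untransfected arrays read higher for Myog and Klhl41 than the treated cells did. Myog was at 11.56 in the untransfected myoblast and 11.68 in the myotube, and Klhl41 at 11.91 and 13.08, above all transfected values of both groups given here. Myod1 was at 12.61 and 12.56, within the range of the miR-34a arrays. These are single arrays without a test, and the control cells differ from the untransfected myoblast in transfection as well.

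**Figure D4:**
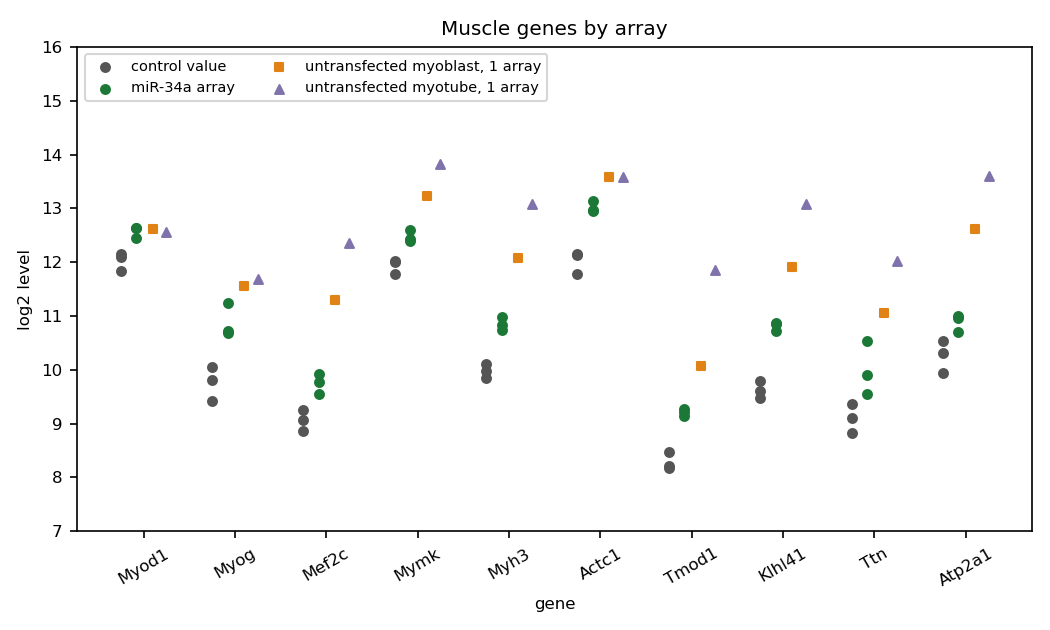
Points are log2 levels of 10 muscle genes (x axis) in the 3 control values (grey), the 3 miR-34a arrays (green), 1 untransfected myoblast (orange square) and 1 untransfected myotube array (violet triangle). Green points lie above grey ones for every gene drawn, and both lie below the myotube for all genes but Myod1.

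The E-box letters CAGCTG, which read the same on both strands and are bound by MyoD family factors, occurred in 20 of 46 windows of sarcomere genes (43.5%; 40 of 54 genes had a window) and in 16.3% of all windows. The Klhl41 window is printed as that of the sarcomere gene that rose most, at chr2:69669870-69670169 on the plus strand of GRCm38.p6, with the E-box 127 bases before the start.
Klhl41: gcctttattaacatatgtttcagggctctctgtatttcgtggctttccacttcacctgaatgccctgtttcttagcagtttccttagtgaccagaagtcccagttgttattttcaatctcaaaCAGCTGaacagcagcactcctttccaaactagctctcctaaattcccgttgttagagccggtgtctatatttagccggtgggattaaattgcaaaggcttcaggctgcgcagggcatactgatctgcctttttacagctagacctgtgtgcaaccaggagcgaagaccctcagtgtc

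**Figure D5:**
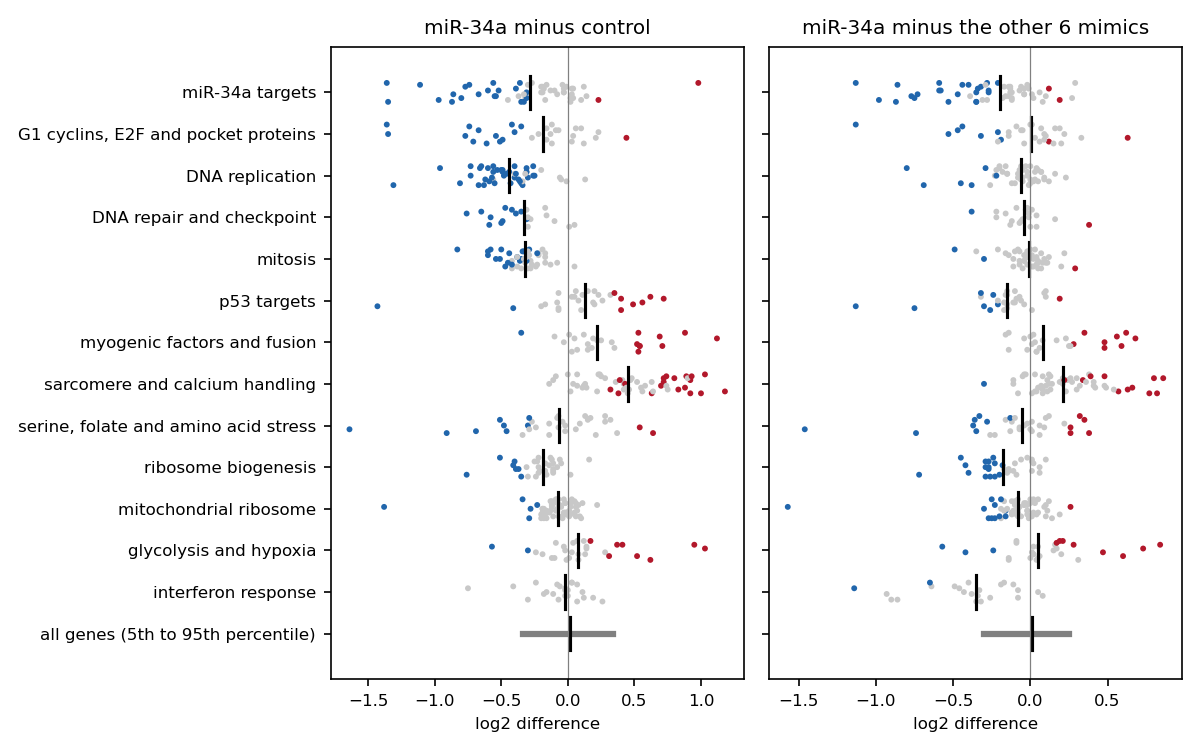
Points are members of 13 gene lists (rows) by log2 difference, miR-34a minus control on the left and minus the mean of the other 6 mimics on the right; blue and red mark adjusted p under 0.05, bars the median, and the grey line the 5th to 95th percentile of all genes. DNA replication has a median of -0.44 on the left and -0.06 on the right, and the listed miR-34a targets -0.28 and -0.19.

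Serine and folate metabolism, which supplies 1-carbon units for nucleotides, was lower in 5 of 10 genes. After Psat1 the largest change was in Mthfd2, the mitochondrial folate enzyme, from 11.65, 11.75 and 11.83 to 10.70, 11.06 and 10.72 (-0.91 ± 0.09, adjusted p = 1.95e-07). All treated values lay below the controls. Mthfd1 fell by 0.51 ± 0.08, Tyms (thymidylate synthase) by 0.46 ± 0.12 and Mthfd1l by 0.30 ± 0.08. The call of Tyms was lost without miR-34a replicate 1 (adjusted p = 0.0519) or control replicate 3 (0.0597), and that of Mthfd1l without any 1 of 4 replicates (up to 0.0794, without miR-34a replicate 1). Of 22 genes of the ATF4 amino acid response 3 fell and 2 rose. The amino acid transporter genes Slc7a1 and Slc7a5 fell by 0.69 ± 0.12 and 0.48 ± 0.08, and Stc2 and Ddit4, of the stress response, rose by 0.64 ± 0.11 and 0.54 ± 0.11. Across these 32 genes 25% fell, against 6.06% of all genes, and 6.25% rose, near the 5.62% of all genes. The 2 that rose became 6 when blocked on replicate number and 4 without miR-34a replicate 1. Compared with the other mimics, 8 of the 32 were lower (25%, beside 8.18% of all genes) and 5 higher (15.6%, beside 5.9%). Without miR-34a replicate 3 the higher ones, Ddit4, Slc7a11, Cth, Vldlr and Stc2, were lost there, as were Slc3a2 and Slc7a1 among the lower ones. Psat1 was at -1.46 ± 0.08 against the other mimics and Mthfd2 at -0.74 ± 0.07.

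In Polycomb repressive complex 2, which places a silencing mark on histone H3, 3 of 11 genes fell and 1 rose. Beside Suz12, the accessory subunit gene Phf19 fell from 8.45, 8.47 and 8.39 to 7.21, 7.32 and 7.42 (-1.12 ± 0.11, adjusted p = 4.11e-07). The core subunit gene Eed fell by 0.34 ± 0.10, and Mtf2, a relative of Phf19, rose from 9.76, 9.67 and 9.71 to 10.37, 10.14 and 10.28 (0.55 ± 0.08). In the comparison with the other mimics Suz12 (-1.36 ± 0.07), Phf19 (-0.93 ± 0.09) and Mtf2 (0.47 ± 0.06) passed and Eed did not (-0.03, adjusted p = 0.876). The call of Eed against the control was lost with the mean of its probe sets (adjusted p = 0.216) and without miR-34a replicate 2 (0.125), control replicate 1 (0.0766) or control replicate 3 (0.0963). Of 14 genes of the other Polycomb complex, PRC1, 0 passed against the control (limma, 1 lower and 1 higher at an unadjusted p under 0.05). Over both complexes 3 of 25 genes fell (12%, beside 6.06% of all genes) and 1 rose (4%, beside 5.62%). When blocked on replicate number 5 were lower.

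Of 37 receptor tyrosine kinase genes and their ligands 6 fell (16.2%, beside 6.06% of all genes) and 3 rose (8.11%, near the 5.62% of all genes). Beside the 4 receptors above, the ligand genes Fgf2 and Nrg1 fell by 0.34 ± 0.11 and 0.38 ± 0.12, while Fgf7, Erbb3 and Gas6 rose. Gas6, the ligand of Axl, rose from 7.74, 7.85 and 7.74 to 8.40, 8.25 and 8.47 (0.60 ± 0.10, adjusted p = 3.71e-04), opposite to its receptor. Erbb3, which binds neuregulin, read 8.28, 7.88 and 7.74 against 9.59, 9.33 and 9.04. The calls of Fgf2 and Nrg1 ended without any 1 of 4 and of 6 replicates, with adjusted p up to 0.23 without control replicate 1 and up to 0.184 without miR-34a replicate 3. The 6 that fell were 3 without miR-34a replicate 3 or control replicate 1, and the 3 that rose were 5 without miR-34a replicate 2 or control replicate 1 and 6 when blocked on replicate number.

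Against the control the Wnt, Notch, TGF-beta and matrix lists held few calls, so single genes are described. Against the other mimics 7 of 34 matrix genes were higher (20.6%) and 0 lower, beside 5.9% and 8.18% of all genes. Of 30 TGF-beta and BMP genes 4 were higher there and 5 lower (13.3% and 16.7%). Of 21 Notch genes 4 were higher there and 3 lower (19% and 14.3%), and of 34 Wnt genes 4 and 2 (11.8% and 5.88%). Against the control 1 of 34 Wnt pathway genes fell and 4 rose (2.94% and 11.8%, beside 6.06% and 5.62% of all genes). The R-spondin receptor gene Lgr4 read 11.56, 11.28 and 11.44 in the controls and 10.64, 10.35 and 10.37 under miR-34a (-0.97 ± 0.14, adjusted p = 4.13e-05), opposite to its relative Lgr6. Sfrp2, a secreted Wnt binder, rose from 7.66, 7.25 and 7.32 to 9.02, 8.28 and 8.44 (1.17 ± 0.19), and Dkk3 rose by 0.37 ± 0.10. Dkk3 was lost without miR-34a replicate 2 (adjusted p = 0.127), control replicate 1 (0.0754) or control replicate 3 (0.0992). The count that fell was 4 when blocked on replicate number. Of 21 Notch genes Numbl and Notch2 fell, and Dll1, the protease gene Adam10 (0.37 ± 0.10) and Numb (0.27 ± 0.09) rose, so Numb and its relative Numbl differed in direction. Numb, however, was lost without any 1 of 4 replicates (adjusted p up to 0.213, without control replicate 3), and Adam10 without miR-34a replicate 1 (0.0531) or 3 (0.064). The Notch calls were 1 lower and 1 higher without miR-34a replicate 1 or 3, and 1 was lower without control replicate 1 or 3. Of 30 TGF-beta and BMP genes the receptor genes Tgfbr2 (0.68 ± 0.09) and Acvr2a (0.54 ± 0.11) rose and Bmpr1a fell (-0.32 ± 0.07), shares of 6.67% and 3.33% that lie near those of all genes. When blocked on replicate number 4 rose and 4 fell, and without miR-34a replicate 1 the count that fell was 2. In the extracellular matrix 3 of 34 rose, a share of 8.82% near the 5.62% of all genes. They were Dcn (1.03 ± 0.22), Aspn and Mmp14 (0.42 ± 0.10), and the count was 7 when so blocked and 1 without control replicate 2. Mmp14 was lost without miR-34a replicate 1 (adjusted p = 0.0512) or control replicate 2 (0.0523). Of 19 connexin and junction genes Gja5 and Cldn12 (0.50 ± 0.12) rose (10.5%, beside 5.62% of all genes) and 0 fell (beside 6.06%). Cldn12 was lost without miR-34a replicate 1 (0.0619) or control replicate 3 (0.0583). Compared with the other mimics, 3 of the 19 were higher (15.8%, beside 5.9% of all genes), Gja5, Cldn12 and Gjc1. F11r was the 1 that was lower there (5.26%, beside 8.18%).

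Known p53 targets did not move one way: 7 of 28 rose (25%, beside 5.62% of all genes) and 2 fell (7.14%, near the 6.06% of all genes), with a median of 0.13. Trp53inp1, an autophagy and death gene, read 9.70, 9.79 and 9.70 against 10.38, 10.44 and 10.52 (0.72 ± 0.12, adjusted p = 1.63e-04), and the antiproliferative gene Btg2 rose by 0.62 ± 0.12. Ei24 fell by 1.43 and the death receptor gene Tnfrsf10b by 0.41 ± 0.12, a call lost without any 1 of 4 replicates (adjusted p up to 0.15, without miR-34a replicate 2). Compared with the other mimics, 7 of the 28 were lower (25%, beside 8.18% of all genes), with a median of -0.15. None of these was among the genes that rose against the control, and Ei24 and Tnfrsf10b were among them. Xpc was the 1 that was higher there (3.57%, beside 5.9%), a call lost without miR-34a replicate 1 (adjusted p = 0.116) or 3 (0.285). Trp53inp1 was at -0.09 ± 0.09 there. The 7 that rose were 4 without miR-34a replicate 3, and 1 fell without the technical repeats or without any 1 of 4 replicates (miR-34a 2 or 3, control 1 or 3). The 7 lower than the other mimics were 3 without miR-34a replicate 3.

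Ribosome biogenesis genes fell in 7 of 32 cases (21.9%, beside 6.06% of all genes) and 0 rose, with a median of -0.19. Bysl, needed for the small ribosomal subunit, read 10.04, 9.96 and 9.96 against 9.32, 9.35 and 9.02 (-0.76 ± 0.12, adjusted p = 7.58e-05), and the nucleolar gene Nop56 fell by 0.35 ± 0.05. Compared with the other mimics, 16 of 32 were lower (50%, beside 8.18% of all genes) and 0 higher, with a median of -0.17. The 7 were 16 when blocked on replicate number, and the 16 against other mimics were 8 without miR-34a replicate 2 and 9 without miR-34a replicate 3. In the mitochondrial ribosome 5 of 62 fell, a share of 8.06% near the 6.06% of all genes. Mrpl16 fell by 1.38 and the other 4 lay between -0.23 and -0.34. The count was 8 when so blocked and 2 or 3 without any single replicate but control 1, and the 11 that were lower than the other mimics (17.7%, beside 8.18% of all genes) were 3 without miR-34a replicate 1, 7 without miR-34a replicate 2 or 3 and 5 after a further quantile normalization. Of 20 genes of translation control, where 5% fell and 10% rose, Eif4ebp2 fell, while Mtor and Akt2 rose by 0.24 ± 0.07 and 0.18 ± 0.04. The call of Mtor was lost without any 1 of 4 replicates (adjusted p up to 0.13, without miR-34a replicate 1) and with each array centred on its median (0.0762).

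Of 29 glycolysis and hypoxia genes 8 rose (27.6%, beside 5.62% of all genes) and 2 fell (6.9%, near the 6.06% of all genes). The mitophagy receptor gene Bnip3 read 9.98, 10.32 and 10.20 against 10.92, 11.27 and 11.39 (1.03 ± 0.12, adjusted p = 4.37e-06), and Pdk1, which holds pyruvate back from the mitochondria, rose by 0.95 ± 0.18. Eno3, the muscle enolase, fell from 13.02, 13.02 and 12.97 to 12.46, 12.59 and 12.23 (-0.57 ± 0.06, adjusted p = 1.46e-06), opposite to the muscle genes that rose. The 8 were 5 without the technical repeats, 4 with each array centred on its median and 3 to 5 without any 1 replicate but miR-34a replicate 1 (3 without control replicate 3). The 2 that fell were 1 without any 1 replicate. Of 25 imprinted genes 5 rose (20%, beside 5.62% of all genes) and 0 fell. Among the 5 was Peg3, a neighbour of Zim1, from 12.05, 12.12 and 12.04 to 12.54, 12.56 and 12.60 (0.50 ± 0.08). Igf2r rose by 0.54 ± 0.08 and Impact by 0.42 ± 0.13, and Dcn is in this list too. Impact was lost without any 1 of 5 replicates (adjusted p up to 0.131, without miR-34a replicate 3). Of 23 lipid synthesis genes 3 fell (13%, beside 6.06% of all genes) and 1 rose (4.35%, beside 5.62%). Against the other mimics 6 of the 23 were higher (26.1%, beside 5.9% of all genes) and 2 lower (8.7%, near 8.18%), with a median of 0.13. Against the control the desaturase genes Scd1 and Scd2 fell by 0.47 ± 0.14 and 0.43 ± 0.11 and the sterol regulator gene Srebf2 by 0.30 ± 0.09. Insig1, a brake on sterol synthesis, rose by 0.72 ± 0.20. None of these 3 decreases kept its call without miR-34a replicate 1 or control replicate 3, 1 of them did without control replicate 2, and the increase of Insig1 was lost without miR-34a replicate 3 (0.105) or control replicate 3 (0.0544). Of 23 senescence genes the share was 4.35% in each direction, below that of all genes. Igfbp6 fell by 0.39 ± 0.12 and Glb1 rose by 0.33 ± 0.08. Without miR-34a replicate 3 both calls were lost (adjusted p = 0.237 and 0.0564), Igfbp6 also without miR-34a replicate 2 (0.0929) or control replicate 1 (0.257) and Glb1 without miR-34a replicate 1 (0.052).

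In the microRNA pathway 6 of 26 genes fell (23.1%, beside 6.06% of all genes) and 2 rose (7.69%, near the 5.62% of all genes). The decapping enzyme gene Dcp2 fell from 9.03, 9.06 and 9.15 to 8.32, 8.27 and 8.41 (-0.75 ± 0.12, adjusted p = 1.96e-04), and Drosha and Dgcr8, which cut primary transcripts, fell by 0.23 ± 0.06 and 0.29 ± 0.07. Tnrc6a, the partner of Argonaute, rose by 0.52 ± 0.08 and Xrn1, the exonuclease that follows decapping, by 0.43 ± 0.10. The 6 were 3 without control replicate 1, and Dgcr8 was lost without miR-34a replicate 2 (adjusted p = 0.0842) or control replicate 1 (0.0698). Of these, Drosha (-0.18 ± 0.04) and Dgcr8 (-0.19 ± 0.06) were also below the other mimics, Drosha not without miR-34a replicate 2 (adjusted p = 0.0669) and Dgcr8 not without replicate 2 (0.314) or 3 (0.077), while Dcp2 and Tnrc6a did not differ from them past the threshold (adjusted p = 0.215 and 0.905). Xrn1, higher than the control, was lower than the other mimics (-0.27 ± 0.08, adjusted p = 0.0239), a call lost without miR-34a replicate 2 (0.174) or 3 (0.138) and after a further quantile normalization (0.0537).

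Of 23 interferon response genes 0 passed against the control (limma, with 1 lower and 0 higher at an unadjusted p under 0.05), and their median was -0.02. The shared SEs of these genes include miR-145 replicate 3, the library that stood apart. Without it, a comparison added after the data were seen, 2 genes fell. The RNA sensor gene Ddx58 (RIG-I) read 9.37, 9.53 and 9.62 in the controls and 8.82, 8.89 and 8.57 under miR-34a, and this difference of -0.75 had an SE of 0.33 and adjusted p = 0.183 with that library and an SE of 0.13 and adjusted p = 3.99e-04 without it. Ifit2 was at -0.41 ± 0.09 (adjusted p = 0.00453) without it. Against the other mimics 2 of 23 were lower with it (8.7%, near the 8.18% of all genes), and 1 without any 1 miR-34a or control replicate. Without miR-145 replicate 3, 9 of 23 were lower, beside 1774 of 19938 genes. Ddx58 was at -1.14 with that library and -1.02 without it. The mean of the other mimics then still held miR-145 replicates 1 and 2, whose summed levels of 184.6 and 180.3 exceeded those of all other mimics (up to 173.9, in miR-22 replicate 3). Leaving miR-145 replicate 3 out gave 2482 genes against the control over the whole array. Of markers of other cell types the adipocyte genes Lpl (0.61 ± 0.15) and Cebpa (0.49 ± 0.11) rose, of 9 measured, and the 9 summed to 62.8 to 64.2 in the controls and 64.5 to 65.1 under miR-34a. Lpl was lost without miR-34a replicate 3 (adjusted p = 0.0808) or control replicate 1 (0.0756). Of the 7 endothelial, 5 blood cell, 6 osteoblast and 8 epithelial markers 0 passed (limma, 0 at an unadjusted p under 0.05), and the part of any of these cells in the results was not tested.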

How the data were processed

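Total RNA was measured on Affymetrix arrays. The deposited values are log2 levels that the authors made with RMA in Affymetrix Expression Console 1.1, per the submitters' processing notes, and the genome build is not given in the sources used here. RMA sets the arrays to a common distribution, so a shift of all genes cannot be seen. Of 35556 probe sets, 21789 had 1 gene symbol, 1621 several and 12146 none. Probe sets with 1 symbol gave 19938 genes, and where a gene had several (999 genes) the one with the highest mean was used. Each control was averaged with the technical repeat of its number. The 24 values of 8 groups were fitted with limma 3.58.1 (R 4.3.3, variance trend, 16 residual degrees of freedom), and p-values were adjusted over all genes by Benjamini-Hochberg. The code was tested on simulated data. Nothing says that replicates came from separate cultures beyond the statement that the experiment was repeated 3 times, and precision is limited by how few arrays there are.

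Genes named were the 15 largest decreases and 12 largest increases past the threshold, the members of lists and the targets by role. The members and lists were chosen with earlier results of these data known. Values with the same replicate number deviated together (residual r of 0.673, 0.528 and 0.206, all over 0.1), although 1 pair of unlike numbers, miR-34a 2 with control 3, reached 0.261, above the pair of number 3, with the numbers taken from the labels, so a fit blocked on replicate number was also made, and appears beside counts that it moves by over 1.5 times. The alternatives were a fit of the miR-34a and control values only, no technical repeats, technical pairs as a random block, no genes of the lowest 40%, a further quantile normalization, centring on the median, the mean of probe sets, no variance trend, a robust variance, leaving out each replicate, and, chosen after seeing the data, leaving out miR-145 replicate 3. Promoter and microRNA sequences come from RefSeq (GRCm38.p6). Sites for the seed in transcripts were not analysed here.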

Additional observations from a re-analysis of the deposited data

How the results depend on the processing

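Gene counts are given by setting, and the causes of the moves were not tested. Without 1 miR-34a or control replicate at a time, 1482 to 2012 genes passed against the control, 677 to 1056 higher and 775 to 1023 lower, beside 2330, 1121 and 1209 with all. Against the other mimics these ranges were 1509 to 2795, 582 to 1169 and 927 to 1626. Mitosis genes that fell numbered 5 to 17 in those fits, 32 when blocked on replicate number, 32 with the miR-34a and control values only and 31 with technical pairs as a random block, beside 19. Sarcomere genes that rose numbered 12 to 16 in those fits, 29 with the block and 34 with the miR-34a and control values only, beside 19, and myogenic genes 4 to 9, beside 9. The block changed no other count among the main ones by over 1.5 times, and gave 3385 genes against the control. Without miR-145 replicate 3, a setting chosen after seeing the data, 2482 genes passed against the control (1199 higher, 1283 lower) and 3034 against the other mimics (1260 higher, 1774 lower), with 20 mitosis genes lower. Of 230 named or listed genes that passed, 159 to 187 kept their call without 1 replicate, 216 to 230 under the other settings (228 of 228 without the lowest 40% of genes), and 0 turned direction in any. With 3 values a side, a missed threshold does not show that a gene was unchanged, and signal near 6.67 gives no usable fold.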
